A study of Mus musculus with 12 samples.

Results

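The genes described are 9 that encode subunits of ionotropic glutamate receptors: Grin1, Grin2a, Grin2b, Grin2d and Grin3a of the NMDA receptor, and Gria1, Gria2, Gria3 and Gria4 of the AMPA receptor. They were listed by name, with earlier results of these data known, and all 9 were present among the 23513 genes of the count tables. Grin2c and Grin3b complete the NMDA receptor family but were close to absent, with 234 and 446 UMIs over all nuclei, or 0.531 and 1.01 counts per 1000000 UMIs (CPM).

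NMDA receptors open only when glutamate and a co-agonist are bound and the membrane is depolarised, and they admit calcium. Each receptor needs the GluN1 subunit, made from Grin1, together with GluN2 subunits (Grin2a to Grin2d) or GluN3 subunits (such as Grin3a). In forebrain, GluN2B dominates before birth and GluN2A rises later, while GluN2D is an early subunit that interneurons keep. AMPA receptors carry fast excitatory currents and are built from GluA1 to GluA4, made from Gria1 to Gria4. GluA2, once its transcript has been edited, keeps calcium out of the channel. Ethanol inhibits NMDA receptors when it is applied to neurons.

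Nuclei from cortices of C57BL/6J mouse embryos were profiled by single nucleus RNA sequencing (snRNAseq), in which each captured RNA molecule is counted by its unique molecular identifier (UMI). Pregnant dams received an intraperitoneal injection of saline or of 2.5 g/kg EtOH once a day for 6 days from E8.5 to E13.5, and the methods give collection at E14.5 where the labels give embryonic day 14. The 5 saline embryos came from dams S1 (S1-1, S1-2) and S2 (S2-1, S2-2, S2-4), and the 6 EtOH embryos from dams E1 (E1-1, E1-2) and E2 (E2-1 to E2-4). Nuclei and libraries of S1 and E1 were prepared in batch 1, and those of S2 and E2 in batch 2. These sources mention no other treatment and no transgene. The study combined male and female embryos and did not compare the sexes. With 2 dams per treatment, littermates share their dam, and the tests on embryos treat them as independent.

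The authors divided the nuclei into 25 clusters. They grouped 5 as radial glial cells (RGC), 2 as intermediate progenitor cells (IPC), 8 as projection neurons (PN) and 7 as interneurons (Int), and the other 3 clusters (striatal, Layer I and an unknown neuron) are called Other here. The defining markers followed the names: Hes1 was highest in RGC (65.8 CPM), Eomes in IPC (358 CPM), Neurod2 in PN (197 CPM) and Gad2 in Int (955 CPM). Saline embryos contributed 30349 nuclei and 44017566 to 83061737 UMIs each, and EtOH embryos 20201 nuclei and 14078316 to 38034349 UMIs each. The median UMIs per nucleus lay between 6325 and 9051 in saline embryos and between 4071.5 and 6911 in EtOH embryos. Of 50226 barcodes, 314 (0.625%) occurred in more than 1 embryo, and none of these had the same UMI total in both.

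Embryo S2-4, labelled saline, stood apart from the other saline embryos before any test. Its profile over 8941 genes correlated on average at 0.993 with the EtOH embryos and at 0.977 with the other saline embryos, whereas the other 4 saline embryos correlated at 0.984 to 0.989 with saline and at 0.968 to 0.981 with EtOH embryos. Its median UMIs per nucleus (6325) and its Malat1 level (15973 CPM) were within the EtOH range of 4071.5 to 6911 UMIs and 15123 to 17389 CPM. The other saline embryos of dam S2 also differed from each other in their mix of clusters. S2-1 had 942 nuclei of Cluster 7 and 28 of Cluster 16, and S2-2 had 221 and 118. S2-4 is kept under its label, and the calls and the smallest p of each member are given with and without it. S2-4 was singled out for its likeness to the EtOH embryos, so leaving it out tends to widen the differences between groups. Calls kept or gained without it are therefore no separate support.

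Upstream sequence is shown for Gria2 and Grin1, the members whose log2 fold change (EtOH over saline) had 1 sign in every cluster tested. The RefSeq table (GRCm38.p6) had an entry for 4 of the 9 genes, and the 250 bases before the annotated start are printed 5′ to 3′ on the strand of the gene. Both genes lie on the minus strand, Gria2 upstream at chr3:80802836-80803085 and Grin1 upstream at chr2:25319188-25319437. Capitals mark the palindromic E-box CACGTG, the letters read by several basic helix-loop-helix factors.
Gria2: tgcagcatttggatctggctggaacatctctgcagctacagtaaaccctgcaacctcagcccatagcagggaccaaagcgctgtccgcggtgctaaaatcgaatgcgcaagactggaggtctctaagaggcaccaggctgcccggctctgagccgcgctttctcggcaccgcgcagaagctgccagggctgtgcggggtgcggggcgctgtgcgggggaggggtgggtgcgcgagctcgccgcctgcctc
Grin1: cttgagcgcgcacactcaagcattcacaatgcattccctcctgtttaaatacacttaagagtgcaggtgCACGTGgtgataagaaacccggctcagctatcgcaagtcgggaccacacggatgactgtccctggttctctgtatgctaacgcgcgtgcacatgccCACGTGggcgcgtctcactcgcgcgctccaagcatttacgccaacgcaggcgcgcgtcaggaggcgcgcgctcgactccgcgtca
Counted from 1 at the 5′ end, E-boxes start at bases 70 and 166 of the Grin1 window, and the Gria2 window holds none. Searched with no mismatch, CACGTG was found in 1978 of 32851 windows of this length (6.02%). The GC box GGGCGG, searched on both strands, was in neither window and in 32.7% of all. G and C made up 64.8% of the Gria2 window and 58.8% of the Grin1 window. A match of letters, or its absence, only describes the window.

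The level of each gene was measured as CPM of the counts summed per embryo and cluster, and given as mean ± SD over embryos with at least 10 nuclei in the cluster. These levels describe clusters that were themselves made from gene expression, so no test was made between clusters. Grin1, the obligatory NMDA receptor subunit, was sparse and neuronal. It was 6.59 ± 1.31 CPM in RGC and 5.02 ± 1.84 in IPC, against 42.4 ± 6.74 in PN, 54.1 ± 12.3 in Int and 64.0 ± 10.6 in Other (SD, n = 11 embryos). By cluster it ran from 4.23 ± 2.35 CPM in Cluster 9, the early PN, to 135 ± 35.2 CPM (n = 7) in Cluster 25, a small PN cluster with 124 nuclei, which is a 31.9-fold span.

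Grin2b was the most abundant NMDA receptor gene by CPM in each of the 5 cell types. It measured 176 ± 28.5 CPM in RGC, 137 ± 25.7 in IPC, 1177 ± 113 in PN, 887 ± 82.8 in Int and 1097 ± 100.6 in Other (n = 11). Its highest clusters were Cluster 22 (1944 ± 100.7 CPM, callosal PN), Cluster 25 (1870 ± 243) and Cluster 4 (1828 ± 78.9, rostral subcortical PN), whose spreads overlapped. Its lowest was again Cluster 9, with 67.3 ± 28.3 CPM, so the early PN cluster held less Grin2b than RGC as a whole. Grin2a, the subunit of more mature receptors, was far lower. It measured 19.1 ± 5.40 CPM in RGC, 6.68 ± 2.62 in IPC, 57.4 ± 17.1 in PN, 61.7 ± 19.2 in Int and 123 ± 27.2 in Other, with its highest value in Cluster 19, the unknown neuron (287 ± 89.0 CPM). As a share of the UMIs of Grin2a and Grin2b together, Grin2b took between 79.7% (Cluster 20) and 98.5% (Cluster 4).

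Grin2d had the fewest UMIs of the 9 genes, though in IPC its mean (5.45 ± 1.90 CPM) was above that of Grin1, and lay between 3.504 ± 1.67 CPM (Cluster 16, caudal subcortical PN) and 53.0 ± 31.2 CPM (Cluster 23, n = 10). Cluster 23 and the next, Cluster 7 (19.9 ± 10.6 CPM), are both interneuron clusters. Cluster 20 (RGC, 17.1 CPM) and Cluster 19 (Other, 16.5 CPM) lay within the spread of Cluster 7, and interneuron Cluster 18 was at 5.01 CPM. Grin2d averaged 13.1 ± 3.79 CPM in Int against 4.49 ± 1.35 in PN. Grin3a, whose subunit lowers the calcium flow of NMDA receptors, ran from 4.18 ± 3.11 CPM (Cluster 16) to 215 ± 44.3 CPM (Cluster 19). It stood at 78.9 ± 22.8 CPM in Int and 28.0 ± 9.49 CPM in PN.

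Gria2 was present throughout. It averaged 679 ± 102.3 CPM in RGC, 880 ± 119 in IPC, 2280 ± 246 in PN, 1161 ± 110 in Int and 1052 ± 128 in Other (n = 11). Its highest cluster was Cluster 1, callosal PN (3335 ± 423 CPM), and its lowest was Cluster 20, an RGC cluster (434 ± 95.6 CPM, n = 9), a 7.68-fold span and the narrowest of the 9 genes. Unlike Grin1 and Grin2b, it was already high in the early PN of Cluster 9 (2339 ± 314 CPM).

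Gria4 and Gria1 were led by interneurons. Gria4 reached 4534 ± 383 CPM in Cluster 5, the migrating interneurons, which was the highest level of any member in any cluster and stood clear of the next cluster (Cluster 7, 1314 ± 163 CPM). In the cell types it measured 240 ± 53.1 CPM in RGC, 159 ± 58.7 in IPC, 428 ± 66.4 in PN, 1966 ± 235 in Int and 700 ± 100 in Other. Gria1 was highest in Cluster 5 (2729 ± 561 CPM) and Cluster 13 (2407 ± 256 CPM), both interneurons whose spreads overlapped, and lowest in Cluster 12, non-mitotic RGC (60.3 ± 41.6 CPM). Gria3, which lies on the X chromosome, was instead led by PN, with 605 ± 30.4 CPM in Cluster 4 and 494 ± 80.9 CPM in Cluster 22. It was lowest in Cluster 23 (53.2 ± 40.1 CPM).

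**Figure D1:**
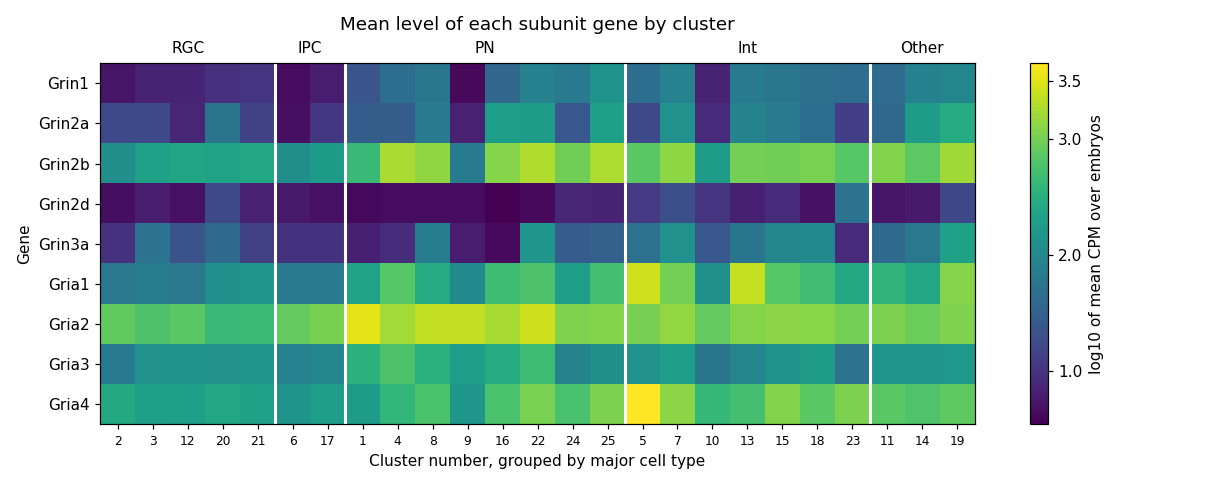
Heat map of the 9 genes (rows) in the 25 clusters (columns, grouped by major cell type), coloured by log10 of the mean CPM over embryos. Gria2 is high in every column, Gria4 peaks in Cluster 5 at 4534 CPM, and Grin1 and Grin2b are low in RGC, IPC and Cluster 9 (4.23 and 67.3 CPM).

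When the clusters were ordered by level, most neighbours could not be separated. Of the 24 neighbouring pairs per gene, all had overlapping mean ± SD ranges for Grin1, Grin2a, Grin2d and Grin3a, 23 for Gria2 and Gria3, and 22 for Grin2b, Gria1 and Gria4. The gaps that exceeded the spread were those below Cluster 5 for Gria4, below Clusters 13 and 7 for Gria1, below Cluster 8 for Gria2, below Cluster 22 for Gria3 and Gria4, and below Clusters 23 and 1 for Grin2b.

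The makeup of AMPA receptor transcripts differed widely among clusters. Of the UMIs of Gria1 to Gria4, Gria2 took 83.9% ± 1.117 in Cluster 9 and 81.5% ± 2.47 in Cluster 1, but 12.3% ± 1.54 in Cluster 5 (n = 11). In Cluster 5, Gria4 took 53.9% ± 3.52 and Gria1 32.2% ± 4.35. In Cluster 13 Gria1 alone took 56.3% ± 4.51. Gria3 never passed 17.98% ± 1.65, its share in Cluster 4.

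**Figure D2:**
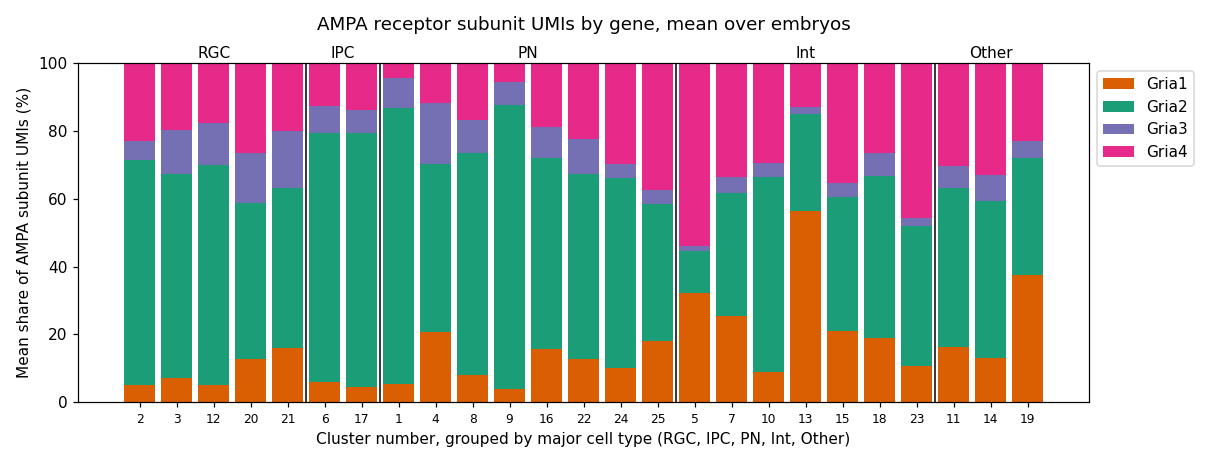
Stacked bars of the mean share (%) of AMPA receptor subunit UMIs that came from each gene, 1 bar per cluster, grouped by major cell type. Gria2 fills most of the bar in Clusters 1 and 9 and 12.3% in Cluster 5, where Gria4 and Gria1 fill most of the rest.

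CPM is not corrected for gene length, and long genes yield more intronic RNA from nuclei. Per 100 kb of gene span, the PN level was 1878 CPM for Gria2, 256 for Grin2b, 151 for Grin1, 143 for Gria3, 128 for Gria1, 113 for Gria4, 15.2 for Grin3a, 13.4 for Grin2a and 9.66 for Grin2d. On this scale Grin1, with a span of 28.0 kb, moved from the seventh place by CPM in PN to the third, next to the AMPA receptor genes. This depended on the scale. Per kb of exon, Grin1 was at 4.37 CPM in PN, Grin2b at 47.4, and the AMPA receptor genes at 40.4 (Gria3) to 147 (Gria2). Levels of genes are compared per span or per exon length here and not per molecule, since the share of intronic counts is not known.

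Nuclei with at least 1 UMI were counted after every nucleus had been thinned to 2000 UMIs, so that depth was equal, which left out 177 saline and 210 EtOH nuclei. Gria2 was seen in 95.7% of PN and 80.2% of Int nuclei, and still in 62.7% of RGC and 65.6% of IPC. Grin2b was seen in 61.6% of PN and 61.3% of Int nuclei, against 21.8% of RGC and 17.1% of IPC. Grin1 and Grin2b together were seen in 5.39% of PN, 6.56% of Int and 0.333% of RGC nuclei. At 2000 UMIs a gene as sparse as Grin1 can be missed in nuclei that contain it, and how often was not estimated. Among RGC nuclei, 79.0% had a UMI of some AMPA receptor gene and 27.7% one of an NMDA receptor gene. Free RNA can add UMIs to any droplet, more so for abundant genes, and no cell type here is known to lack all of these genes. Grin1 in RGC and IPC was seen in 0.830% to 1.54% of thinned nuclei by cluster (0.860% in Cluster 9). Median depths there were 6477.5 and 5939 UMIs before thinning. These shares of a sparse gene set no floor for more abundant ones. Grin1 was at 6.59 CPM in RGC and 42.4 in PN, and Grin2b at 176 and 1177. Gria4 was at 240 CPM in RGC and 1966 in Int. How much of the levels in RGC and IPC came from free RNA was not tested.

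The genes most like each member across the 25 clusters, by Pearson correlation of log2(mean CPM + 1) among genes with a mean of at least 20 CPM, are given as a description, since all points share the same libraries. Grin2b had Grin1 as its closest gene of all (r = 0.95, n = 25 clusters), followed by Shank1, a postsynaptic scaffold (r = 0.95). Grin1 was closest to Epb41l1 (r = 0.97), a membrane skeleton protein that binds GluA1, then Sptbn4 (r = 0.96) and Shank1 (r = 0.96). Gria4 was closest to Pde4dip, Amph and Xkr4 (r = 0.91, 0.89 and 0.87) and Gria1 to C1qtnf4, Sgk1 and Dnm3 (r = 0.88, 0.88 and 0.87). Grin2a was closest to Dmtn, Ahi1 and Gabbr2 (r = 0.88, 0.88 and 0.86) and Grin3a to Olfm3, Amy1 and Sfmbt2 (r = 0.87, 0.83 and 0.82). Gria2 was closest to Sppl2a, Clmp and Bdh1 (r = 0.86, 0.85 and 0.85), Gria3 to Ttc7, Cdh13 and Ppp1r14c (r = 0.87, 0.81 and 0.81), and Grin2d, the least matched, to Trpc4, 5330434G04Rik and Crb1 (r = 0.75, 0.73 and 0.73). Among members, Gria1 and Gria4 correlated at 0.81, while Grin2d ran against Gria3 at -0.46.

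The main question for these genes was whether EtOH changed them. After EtOH, Grin1 was higher in Clusters 1 and 5 and in Int, Grin2d was higher in PN, Gria4 was lower in Cluster 2, RGC and PN, and Grin2b was lower in Cluster 9. Each cluster and each major cell type was tested with edgeR on counts summed per embryo, and a gene was called at an adjusted p under 0.05 (Benjamini-Hochberg over all genes tested in that unit) with a fold change below 0.8 or above its reciprocal. By cluster, 4 of 192 tested pairs of member and cluster were called (2.08%), where the share among all genes and clusters was 0.792%. By major cell type, 4 of 45 pairs were called (8.89%), where the share among all genes was 3.75%. Unadjusted p lay under 0.05 in 51 cluster pairs (26.6%, all genes 17.4%) and in 13 cell type pairs (28.9%, all genes 27.7%). The median log2 fold change over the members was -0.04 by cluster and -0.08 by cell type. Without S2-4 all 8 of these calls remained, among 33 in all: 23 of 191 cluster pairs, where 8.78% of all genes were called, and 10 of 45 cell type pairs, where 16.9% were (RGC 18.4%, IPC 15%, PN 20.9%, Int 17.1%, Other 11.7%). Since S2-4 had been singled out for its likeness to EtOH embryos, these counts are no separate support.

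Grin1 rose in Cluster 5, the migrating interneurons. The saline embryos S1-1, S1-2, S2-1, S2-2 and S2-4 had 30.1, 36.1, 29.96, 31.2 and 39.3 CPM of Grin1, and the EtOH embryos had 52.0 at the lowest, 57.4 at the median and 65.9 at the highest. The groups did not overlap, and S2-4 was the highest saline embryo. The mean rose from 33.3 ± 4.18 (n = 5) to 57.9 ± 5.31 CPM (n = 6), a log2 fold change of 0.74 ± 0.10 (SE; edgeR adjusted p = 0.00777), in a cluster where 2.01% of all genes were called. This call was kept without each single embryo, with counts summed per dam (adjusted p = 0.0218) and without S2-4 (log2 fold change 0.78, adjusted p = 3.66e-05). With nuclei thinned to 2000 UMIs the log2 fold change was 0.47, smaller than the 0.74 above, and the call was lost (adjusted p = 0.183).

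In Cluster 1, callosal PN, Grin1 was at 21.01, 15.9, 15, 15.3 and 20.3 CPM in the 5 saline embryos in the same order, and at 23.2, 26.7 and 34.0 CPM (lowest, median, highest) in the EtOH embryos. The groups again did not overlap. This gave a log2 fold change of 0.60 ± 0.14 (edgeR adjusted p = 0.0320), where 3.26% of all genes in that cluster were called. The call was lost without any of 10 of the 11 embryos, at log2 fold changes of 0.53 to 0.70 and with 12 to 151 of all genes called in those fits, and kept without S2-4 (adjusted p = 0.00448), and it was lost after thinning (0.48, adjusted p = 0.293) and with counts summed per dam (adjusted p = 0.118).

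In Int as a whole, Grin1 was at 45.7, 45.6, 41.9, 46.2 and 42.1 CPM in the saline embryos, a narrow range, and at 43.7, 65.6 and 72.5 CPM in the EtOH embryos. The groups overlapped through E1-1, which stood inside the saline range. For Int the log2 fold change was 0.43 ± 0.11 (edgeR adjusted p = 0.0401; 4.83% of all genes in Int called), 0.38 without S2-4 (adjusted p = 0.0236), and lost its call with batch as a block (adjusted p = 0.0527), with no filter on low counts (adjusted p = 0.0545), with counts summed per dam (adjusted p = 0.0790), after thinning (0.39, adjusted p = 0.0910) and without any of 9 embryos. In those 9 fits it was 0.38 to 0.46, and in 5 of them no gene at all was called in Int. Over clusters, the log2 fold change of Grin1 was above 0 in 18 of the 18 clusters tested, from 0.17 to 0.74, with 7 at an unadjusted p under 0.05. Of the 3041 genes tested in all of these clusters, 3.85% were above 0 in each. In PN it was 0.27 ± 0.09 (adjusted p = 0.0573). In IPC it was -0.30 ± 0.32, at 5.40 against 4.71 CPM.

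Grin2d, at very low levels, was called in PN. The saline embryos had 2.81, 2.70, 3.15, 2.77 and 5.61 CPM and the EtOH embryos 4.4, 5.43 and 5.95 CPM. The groups overlapped only because of S2-4, which was at the EtOH level. Its log2 fold change was 0.62 ± 0.18 (edgeR adjusted p = 0.0458; 6.53% of all genes in PN called) and 0.87 ± 0.14 without S2-4 (adjusted p = 0.000171). The call was lost with batch as a block (adjusted p = 0.0518), with counts summed per dam (adjusted p = 0.203) and without any other embryo, and thinned nuclei gave 0.23 (adjusted p = 0.648). In those 10 fits without 1 embryo Grin2d was at 0.55 to 0.65, and in 5 of them no gene at all was called in PN. The log2 fold change of Grin2d lay between 0.26 and 0.62 in the 5 cell types and was above 0 in 10 of the 11 clusters tested, where 11.5% of 3853 genes were above 0 in at least 10. Without S2-4 it was also called higher in RGC (0.79, adjusted p = 0.00485) and in Clusters 2, 3 and 4 (1.02, 0.76 and 0.99).

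Grin2b was called in 1 place, the early PN of Cluster 9, where it fell. The saline embryos had 124, 95.1, 96.7, 82.5 and 55.8 CPM and the EtOH embryos 30.03, 49.9 and 59.9 CPM. S2-4 was the lowest saline embryo and the only one within the EtOH range. The mean went from 90.8 ± 24.7 to 47.6 ± 9.93 CPM, a log2 fold change of -0.95 ± 0.21 (edgeR adjusted p = 0.0463; 1.27% of all genes in that cluster called) and of -1.11 without S2-4 (adjusted p = 7.44e-06). The call was lost with batch as a block (adjusted p = 0.0632), with counts summed per dam (adjusted p = 0.101), with limma voom and the dam as a random block (adjusted p = 0.0879), after thinning (-0.85, adjusted p = 0.0704) and without any other embryo, where it was -1.03 to -0.78 and 9 to 60 of all genes were called. In batch 1 the log2 ratio of the means was -1.43 and in batch 2 it was -0.61, and for the other 7 calls the ratios of both batches had the sign of the pooled value. In the 5 cell types its log2 fold change lay between -0.17 and 0.12, none called.

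Grin2a and Grin3a had no call in the main edgeR test, with all embryos. Grin2a had its smallest p in Cluster 2, with saline values of 20.1, 14.8, 18.1, 31.9 and 18.1 CPM and EtOH values of 8.29, 14.7 and 21.2 CPM. The groups overlapped, and the log2 fold change of -0.63 ± 0.26 (edgeR adjusted p = 0.161) did not hold in batch 1, where the log2 ratio of the means was 0.17 against -0.97 in batch 2. Without S2-4 it was -0.70 (edgeR adjusted p = 0.0999), and Grin2a was then called lower in Cluster 6 (-1.37, adjusted p = 0.00373), as it was with all embryos and no filter on low counts (-1.21, adjusted p = 0.0439). Cluster 6 had the lowest mean level of Grin2a of all clusters, 4.67 CPM. Grin3a had its smallest p in Cluster 19, with 173, 139.9, 229.7, 138 and 227 CPM in saline embryos and 222, 238 and 270.2 CPM in EtOH embryos. The log2 fold change was 0.42 ± 0.13 (edgeR adjusted p = 0.163), and 0.49 without S2-4 (adjusted p = 0.0381), when Grin3a was also called with the opposite sign in Cluster 4 (-0.94, adjusted p = 0.0297). In Cluster 5 Grin3a was called higher with all embryos by DESeq2 (0.95, adjusted p = 0.0126) and by edgeR with batch as a block (1.03, adjusted p = 0.0389).

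**Figure D3:**
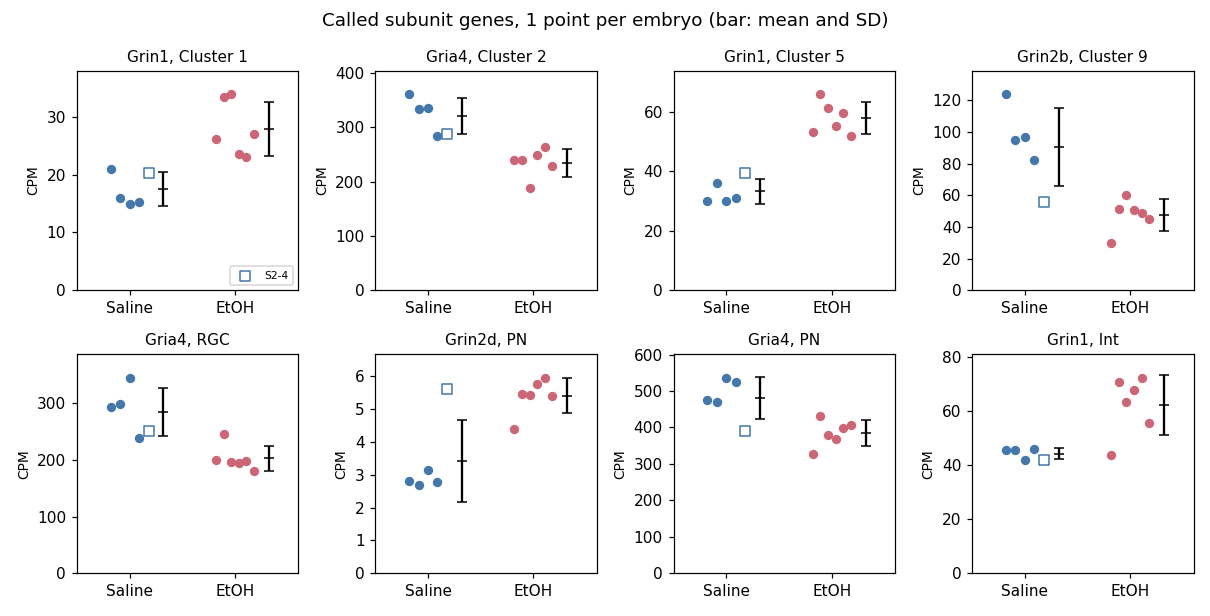
CPM of each called member in its cluster or cell type, 1 point per embryo (saline blue, EtOH red), with the mean and SD as a bar; the open square is saline embryo S2-4. The groups do not overlap for Grin1 in Clusters 1 and 5 and Gria4 in Cluster 2, and in the Grin2d panel S2-4 lies among the EtOH embryos. The panels were picked by their calls, so groups that do not overlap are no further support.

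Gria4 fell in RGC, in the RGC of Cluster 2 and in PN. In RGC the saline embryos had 293, 298, 346, 239 and 252 CPM and the EtOH embryos 181, 198 and 245 CPM. EtOH embryo E1-2, at 245 CPM, reached above saline embryo S2-2, and the other EtOH embryos lay below all saline embryos. The mean went from 285 ± 42.5 to 203 ± 21.98 CPM, a log2 fold change of -0.58 ± 0.11 (edgeR adjusted p = 0.0402; 3.79% of all genes in RGC called). The call held after thinning (-0.66, adjusted p = 0.0162), with counts summed per dam (adjusted p = 0.0359) and without S2-4 (-0.64, adjusted p = 0.00155), and was lost without any of 9 of the embryos. In those 9 fits Gria4 was at -0.65 to -0.50 and no gene at all was called in RGC.

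Among the RGC clusters Gria4 was called in Cluster 2, where it was at 361, 335, 336, 284 and 288 CPM in saline embryos and at 187, 239.8 and 264 CPM in EtOH embryos. The groups did not overlap there. The log2 fold change was -0.51 ± 0.09 (edgeR adjusted p = 0.0389; 0.718% of all genes in that cluster called), -0.56 without S2-4 (adjusted p = 0.000475), and lost its call with counts summed per dam (adjusted p = 0.143), with limma voom and the dam as a random block (adjusted p = 0.0505) and without any of 9 embryos. In those 9 fits it was -0.54 to -0.44, and in 7 of them no gene at all was called in Cluster 2.

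In PN, Gria4 was at 476, 471, 537, 525 and 392 CPM in saline embryos and at 327, 389.5 and 430.2 CPM in EtOH embryos. Only S2-4 among the saline embryos lay within the EtOH range. The log2 fold change was -0.37 ± 0.09 (edgeR adjusted p = 0.0318) and -0.44 without S2-4 (adjusted p = 0.000107). The call was lost with counts summed per dam (adjusted p = 0.165), after thinning (-0.40, adjusted p = 0.0766) and without any of 7 embryos. In those 7 fits it was -0.39 to -0.32, and in 5 of them no gene at all was called in PN. In IPC the log2 fold change was larger, -0.71 ± 0.23, but was called only without S2-4 (-0.86, adjusted p = 0.00912; adjusted p = 0.103 with it). In Int it was -0.04 ± 0.11. Over clusters, Gria4 lay below 0 in 22 of 25, with 11 at an unadjusted p under 0.05. Of the 2973 genes tested in all 25 clusters, 26% lay below 0 in at least 22. That share is not matched for gene span. Of genes of 200 to 400 kb, the class of Gria4, 65.2% (Int) to 76.0% (RGC) lay below 0 by cell type. Without S2-4 Gria4 was called lower in 7 clusters, from -1.05 (Cluster 6) to -0.43 (Cluster 16).

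In the main edgeR test, with all embryos, Gria2 was called in no cluster or cell type. Its log2 fold change was below 0 in 25 of 25 clusters, from -0.61 to -0.12, which held for 4.51% of the 2973 genes tested in all clusters, and in 13 clusters the unadjusted p was under 0.05. The clusters share their embryos and so are not separate evidence. The 4.51% is also not matched for gene span. Of genes of 100 to 200 kb, the class of Gria2, 63.8% (PN) to 71.3% (RGC) lay below 0 by cell type. Of all genes, 48.3% (PN) to 49.9% (Other) did. The smallest p was in Cluster 19, with saline values of 1305, 1382, 1299, 1351 and 1162 CPM and EtOH values of 932, 979 and 1121 CPM. The groups did not overlap, and the log2 fold change was -0.41 ± 0.10 (edgeR adjusted p = 0.0851), and -0.46 without S2-4 (adjusted p = 0.0123). With all embryos Gria2 in Cluster 19 was called lower by DESeq2 (adjusted p = 0.00633), by limma voom with a random effect of dam (adjusted p = 0.0337) and by edgeR with no filter on low counts (adjusted p = 0.000554). It was not called with batch as a block (adjusted p = 0.103), with counts summed per dam (adjusted p = 0.302) or after thinning (adjusted p = 0.440). Cluster 2 was called lower by DESeq2 (-0.34, adjusted p = 0.0228), with no filter (-0.39, adjusted p = 0.00319) and after thinning (-0.37, adjusted p = 0.0443), and no filter gave 6 clusters and Other in all. In the cell types it lay between -0.32 ± 0.11 (RGC) and -0.22 ± 0.11 (IPC). Without S2-4 it was called lower in RGC (-0.38), Int (-0.32) and Other (-0.33) and in Clusters 2, 6 and 19.

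Gria1 and Gria3 had no call in the main edgeR test, with all embryos. Gria1 had its smallest p in Cluster 5, with 2341, 2541, 1894, 2225 and 2605 CPM in saline embryos and 2501, 3005 and 3736 CPM in EtOH embryos. The groups overlapped, and the log2 fold change was 0.35 ± 0.12 (edgeR adjusted p = 0.0992) and 0.38 without S2-4 (adjusted p = 0.0887). With counts summed per dam Gria1 was called lower in Clusters 3 and 12 (-0.49 and -1.22), and with no filter it was called higher in Cluster 23 (0.72). In IPC the log2 fold change of Gria1 was -0.52 ± 0.23 (adjusted p = 0.200), so its sign differed between cell types, none of them called. Gria3 had its smallest p in Cluster 8, with 334, 397, 405, 356 and 333 CPM in saline embryos and 274, 323 and 349 CPM in EtOH embryos. The groups overlapped, and the log2 fold change was -0.23 ± 0.08 (edgeR adjusted p = 0.0951). Without S2-4 it was -0.28 (adjusted p = 0.0125), short of the fold change a call needs. With no filter Gria3 was called lower in Clusters 16 and 23 (-0.44 and -1.31). Without S2-4, Gria3 was called lower in RGC and in 3 clusters.

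**Figure D4:**
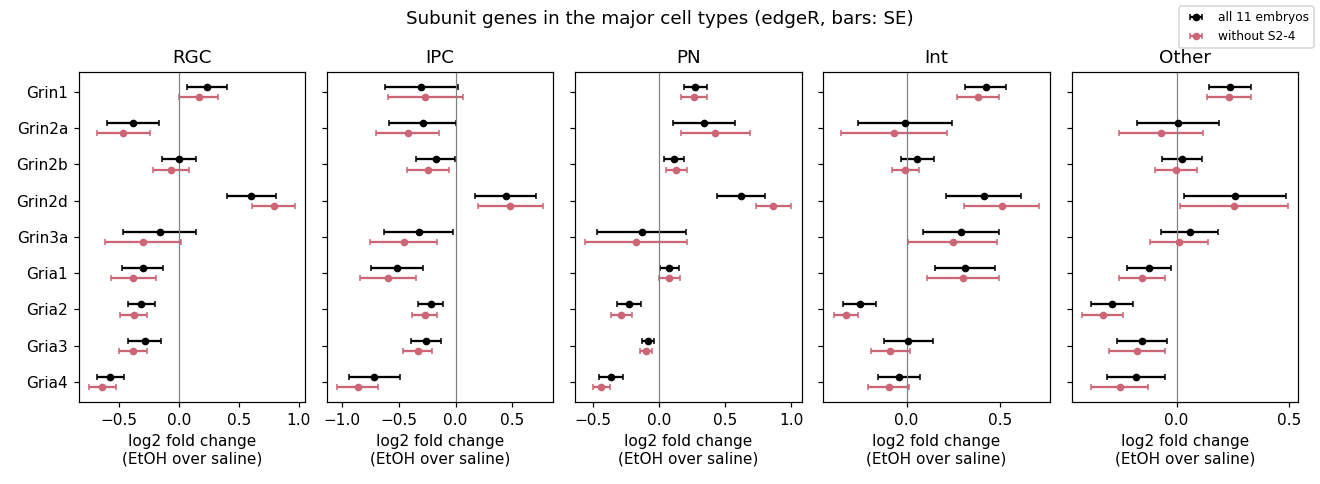
Log2 fold change (EtOH over saline, x axis) of the 9 genes in the 5 major cell types, with the SE as bars, for all 11 embryos (black) and without S2-4 (red). Gria2 and Gria4 lie left of 0 in all 5 panels and Grin2d right of 0, and leaving out S2-4 moves Gria2 and Gria4 further left.

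The EtOH effect was also compared between cell types, with a test that called 0 of all genes and so cannot tell whether the effect on a member differed. For Gria4 the EtOH effect in PN minus that in Int was -0.33 on the log2 CPM scale (two-sided exact permutation test, p = 0.0411, adjusted over all genes p = 0.909), with 5.38% of all genes under an unadjusted p of 0.05 in that difference. Of the 18 differences of PN against Int or RGC, 0 had an adjusted p under 0.05 and 1 an unadjusted p under 0.05, where for PN against RGC 10.3% of all genes had one. By adjusted p the test called 0 of 14064 genes for PN against Int and 0 of 13573 for PN against RGC. Without S2-4 the Gria4 difference was -0.37 (exact permutation p = 0.0333, adjusted p = 0.764).

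The share of nuclei with a UMI was compared at equal depth. In RGC, Gria4 was seen in 37.8%, 33.4%, 40.8%, 31.2% and 27.3% of nuclei in the saline embryos and in 21.7%, 22.7% and 25.4% (lowest, median, highest) in the EtOH embryos. The groups did not overlap, S2-4 being the lowest saline embryo. The means were 34.1% ± 5.33 and 23.1% ± 1.33, a difference of -10.99 percentage points (two-sided exact permutation p = 0.00216, adjusted over all genes p = 0.169). In PN it went from 42.5% ± 6.60 to 32.1% ± 2.10 (exact permutation p = 0.00433, adjusted p = 0.138), and in IPC from 27.4% ± 8.55 to 14.95% ± 2.48 (exact permutation p = 0.00649, adjusted p = 0.223). Gria1 went from 10.8% ± 3.74 to 5.99% ± 0.804 in RGC and from 12.8% ± 3.95 to 6.40% ± 2.06 in IPC. Gria2 went from 66.3% ± 3.52 to 57.1% ± 4.73 in RGC and from 82.1% ± 3.21 to 77.2% ± 2.44 in Int.

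For Grin1 the share in PN was 6.26%, 6.21%, 5.49%, 5.03% and 5.14% in saline embryos and 6.61%, 7.67% and 8.28% in EtOH embryos. The groups did not overlap, and S2-4 lay with the other saline embryos (exact permutation p = 0.00433, adjusted p = 0.138). In Int it went from 7.33% ± 0.313 to 9.56% ± 1.62. In RGC it was 1.13% ± 0.398 and 0.945% ± 0.352, and in IPC 1.08% ± 0.460 and 0.585% ± 0.619. Of the 45 shares, 18 had an unadjusted p under 0.05 (all genes 16.7%) and 0 an adjusted one, with the smallest at 0.138. This test called 0 of all genes by adjusted p in each of the 5 cell types, so its 0 says nothing about the members. Without S2-4 it was again none, with 21 unadjusted and 0.0553 as the smallest adjusted p. Without thinning, 9 of the 45 had an adjusted p under 0.05, against 14.9% of all genes. These were Grin2b and all 4 AMPA receptor genes in RGC, Gria1, Gria2 and Gria4 in IPC, and Gria4 in PN. Saline nuclei are deeper, and for Gria4 in RGC the unthinned means were 65.5% and 39.6%.

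**Figure D5:**
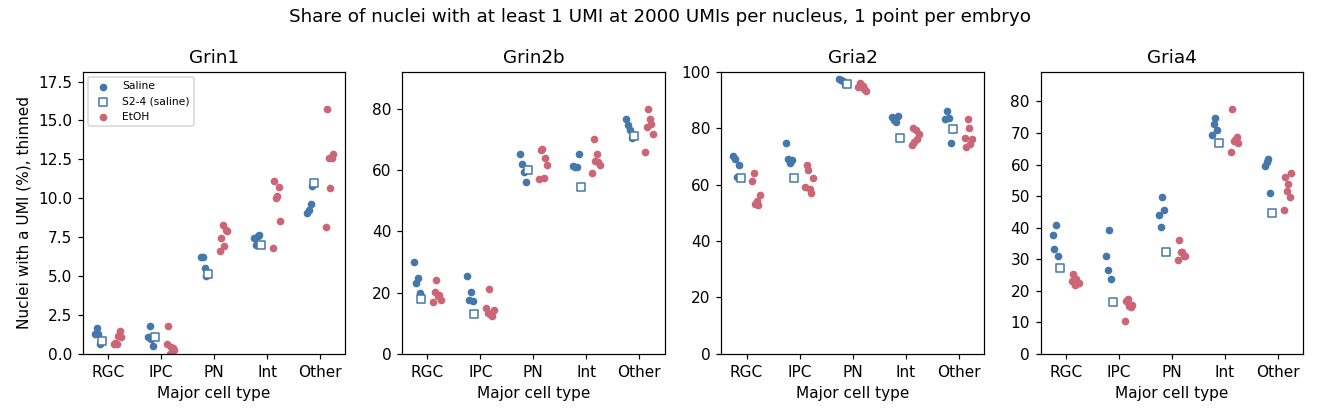
Share (%) of nuclei with at least 1 UMI of Grin1, Grin2b, Gria2 and Gria4 at 2000 UMIs per nucleus, by major cell type, 1 point per embryo (saline blue, EtOH red, S2-4 as an open square). Gria4 is lower in EtOH embryos in RGC (34.1% against 23.1% on average), whereas Grin2b overlaps between the groups in every cell type.

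The balance of subunits within a receptor was then compared between treatments. Grin2b made up 95.8% ± 0.826 of Grin2a and Grin2b UMIs in PN of saline embryos and 95.1% ± 1.04 in EtOH embryos (exact permutation p = 0.251, adjusted over the 10 ratios p = 0.469). Gria2 made up 71.6% ± 4.66 of AMPA receptor UMIs in IPC of saline embryos and 76.0% ± 2.31 in EtOH embryos (exact permutation p = 0.0411, adjusted p = 0.188). In Int it made up 27.3% ± 1.39 and 23.2% ± 3.53 (exact permutation p = 0.0541, adjusted p = 0.188). None of the 10 ratios had an adjusted p under 0.05, with or without S2-4. With thinned nuclei 3 did: Gria2 in IPC (70.1% against 77.9%, adjusted p = 0.0325), Gria2 in Int (26.3% against 20.8%, adjusted p = 0.0433) and Grin2b in IPC (94.1% against 98.6%, adjusted p = 0.0216), all from the exact permutation test. The last ratio rests on few Grin2a UMIs, since Grin2a was seen in 0.328% ± 0.081 of thinned IPC nuclei of EtOH embryos. Without thinning and without S2-4, Grin2b in IPC made up 94.8% in saline and 95.6% in EtOH embryos (exact permutation p = 0.5).

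The other genes of glutamate synapses, from lists of 17 AMPA receptor auxiliary subunits, 21 postsynaptic scaffold genes and 12 genes of glutamate supply, RNA editing and co-agonist supply, gave 5 calls in 227 tests over the 5 cell types (2.2%, where 3.75% of all genes were called). Without S2-4 they gave 18 calls in 227 tests (7.93%, all genes 16.9%). Of the auxiliary subunits 1 was called, Cacng3, a TARP that traffics AMPA receptors, which was higher in Int (log2 fold change 0.74 ± 0.20, edgeR adjusted p = 0.0496; 0.76 without S2-4; 4.83% of all genes in Int called). Of the scaffolds 1 was called, Homer1, which links metabotropic receptors to the scaffold and was lower in RGC (-0.37 ± 0.07, adjusted p = 0.0402, -0.43 without S2-4; 3.79% of all genes called) and IPC (-0.43 ± 0.09, adjusted p = 0.0470, -0.47 without S2-4), where 1.52% of all genes were called. Among the supply genes, Slc17a6, a vesicular glutamate transporter, was lower in PN (-0.40 ± 0.10, adjusted p = 0.0345, -0.44 without S2-4; 6.53% of all genes called). Of the 11 fits without 1 embryo, 9 in RGC, 5 in PN and 5 in Int called no gene at all. In IPC this was so without any single EtOH embryo and without S1-2, S2-1 or S2-2. Cacng3, Homer1 and Slc17a6 lost their calls in those fits. The abundant scaffolds Dlg2, Grip1 and Dlgap1 were not called in any cell type, with log2 fold changes in PN of 0.10, -0.09 and -0.06. The median log2 fold change of the auxiliary subunits was -0.15 in RGC, -0.12 in IPC, -0.08 in PN, -0.07 in Int and -0.13 in Other. That of the scaffolds was -0.14 in RGC, with 15 of 20 below 0, and -0.12 in IPC, with 17 of 19 below 0. In PN, Int and Other it was -0.03, 0.01 and -0.08, with 12, 10 and 12 of 20 below 0. For the supply list it lay between -0.11 (Int) and -0.04 (IPC). Over all genes tested the median was 0.00042 to 0.01 in the 5 cell types, and 48.3% (PN) to 49.9% (Other) of genes lay below 0. These values are not matched for the gene spans of the lists. Of genes above 400 kb, 83.4% in RGC and 84.0% in IPC lay below 0. For genes of 200 to 400 kb this was 76.0% and 73.9%, and for those up to 20 kb 33.0% and 33.1%.

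Several measured properties moved with these results, and their part in them was not tested. The Malat1 level over all nuclei was 12156 to 13882 CPM in saline embryos other than S2-4, 15973 CPM in S2-4 and 15123 to 17389 CPM in EtOH embryos. The log2 fold change of all genes depended on gene span: in RGC its median was 0.13 for genes up to 20 kb and -0.21 for those above 400 kb, and in PN it was 0.10 and -0.09. Beside their own span class, Gria4 in RGC stood at -0.58 against -0.14, Gria4 in PN at -0.37 against -0.07, Gria2 in RGC at -0.32 against -0.10, Grin2d in PN at 0.62 against 0.0019 and Grin1 in Int at 0.43 against -0.0046. The summed level of the 4 microglia markers was 14.4 to 40.5 CPM in RGC of saline embryos and 38.3 to 48.2 CPM in RGC of EtOH embryos, and in PN it was 8.91 to 21.2 CPM and 18.4 to 27.4 CPM. Of these, Ly86 and Csf1r were under 1 CPM in every cell type. The summed level of the 3 erythroid markers in PN was 14.1 to 76.6 CPM in saline and 30.4 to 49.4 CPM in EtOH embryos, and the 4 endothelial markers there overlapped at 6.04 to 13.2 and 6.78 to 12.2 CPM. A level summed over a cell type also moves with the mix of its clusters. Equal weights went to clusters with at least 10 nuclei in every embryo. These were 6 of 8 in PN, 6 of 7 in Int and 3 of 5 in RGC. So weighted, Gria4 in PN was -0.43 (exact permutation p = 0.00433, adjusted p = 0.111) and Grin1 in Int 0.37 (p = 0.0130 by the same permutation test, adjusted p = 0.161). Gria4 in RGC and Grin2d in PN are not given on this scale. In RGC, S2-1 had 301 nuclei of Cluster 2 and 870 of Cluster 3, and S2-2 had 690 and 197. Their Gria4 levels in RGC, 346 and 239 CPM, were the highest and lowest of the saline embryos. Grin1, Grin2b and Grin2d overlap genes on the opposite strand, some of which have counts of their own in the tables. The 3′ chemistry marks strand, and the methods give default Cell Ranger settings, which count reads by strand. Kdelr1 (17.8 CPM), which overlaps Grin2d, had a log2 fold change of -0.02 in PN, Grin1os (1.16 CPM) one of 0.49 (adjusted p = 0.170), and Gm14330 (6.79 CPM), which overlaps Grin2b, rose there by 0.72 (edgeR adjusted p = 0.0301), in Int by 0.89 (adjusted p = 0.0327) and in Cluster 16 by 1.39 (adjusted p = 0.0450). Gm14329 (3.03 CPM), which also overlaps Grin2b, rose in Int by 0.93 (edgeR adjusted p = 0.0342). The calls of Gm14330 and Gm14329 in PN and Int were lost in at least 5 of the 11 fits without 1 embryo, in which no gene at all was called.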

How the data were processed

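Cortical nuclei of 11 embryos (5 saline, 6 EtOH) were profiled with 10x 3′ chemistry. Reads were aligned by the authors with Cell Ranger (mm10), who filtered and clustered nuclei in Seurat, corrected for batch and dam with Harmony, removed some clusters, and deposited raw UMI counts per embryo and cluster; clusters are the authors' own. The study's filters set upper limits on genes and counts per nucleus; a doublet caller is not given in the sources used here, and none was run. One further saline sample in the labels was not used here. The methods state that a saline sample was removed because its cells were consistently spread over the clusters differently from all others.

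Counts were summed per embryo and cluster or cell type (at least 10 nuclei; 2 or more embryos per group) and tested with edgeR 4.0.16 (quasi-likelihood, robust, TMM, filterByExpr) in R 4.3.3, with DESeq2 1.42.0 and limma 3.58.1 as alternatives; p-values were adjusted over all genes of a unit. CPM is counts per 1000000 of that sum. Shares, subunit ratios and differences between cell types were tested with two-sided exact permutation tests over 462 splits of embryos in Python 3.11.15. The planned adjustment over the members' own tests was replaced by one over all genes, except for the 10 subunit ratios. Means per dam allow no p under 0.333. On simulated data edgeR recovered 94.6% of changes of 1 log2 unit and 27.1% of those of 0.5 in PN (14556 genes). The simulation gave every gene the same dispersion and held no effect of dam, so it does not give the power of the tests on these embryos.

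Dams of the 2 treatments share batches; the difference between batches correlated at r = -0.054 between treatments (8941 genes, 2 pairs). Named genes were every member called, and otherwise the cluster with the smallest p for each member. A result for another gene of the supply list is not reported here. The members and lists were chosen with earlier results of these data known. Positions came from GENCODE M21 (GRCm38), in which 23136 genes matched. The 9 genes lie at chr2:25291181-25319187 (Grin1), chr16:9567898-9995560 (Grin2a), chr6:135713233-136173511 (Grin2b), chr7:45831883-45878378 (Grin2d), chr4:49661611-49845744 (Grin3a), chr11:57011387-57330244 (Gria1), chr3:80681450-80802835 (Gria2), chrX:41400854-41678601 (Gria3) and chr9:4417896-4796234 (Gria4), the minus strand for all but Gria1 and Gria3.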

Additional observations from a re-analysis of the deposited data

Results flagged for a closer look

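In groups of 5 or 6 embryos, 1 embryo lay far from the others in 3 of the 26 groups examined, where chance gives about 1 in 20. For Gria4 in RGC this was EtOH embryo E1-2, at 245 CPM, above the other EtOH embryos. For Grin2d in PN it was saline embryo S2-4, at 5.61 CPM, above the other saline embryos, and EtOH embryo E1-1, at 4.4 CPM, below the other EtOH embryos. The cause was not tested.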

How the results depend on the processing

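Members called in clusters numbered 4, and 13 with DESeq2 (all genes 2.64%), 21 with no filter on low counts (2.07%), 8 with counts summed per dam (0.721%) and 2 with p-values adjusted over all clusters together (0.405%), against 0.792% of all genes in the main test. With batch as a replicate block they numbered 4 (0.419%). Leaving out 1 embryo gave 1 to 23 (0.0408% to 8.78% of all genes), the highest without S2-4. Members called in cell types numbered 4, and 2 with the replicate block (2.3%), 2 with counts summed per dam (1.23%) and 1 with thinned nuclei (1.41%), against 3.75% in the main test. Clusters weighted equally gave 0 by the exact permutation test, which called 0 of all genes in each cell type and so says nothing about the members. Leaving out 1 embryo gave 0 to 10, the highest again without S2-4 (16.9% of all genes); without S1-2, S2-1 or E2-2 no gene at all was called, and without S1-1 only 1. The replicate block lost Grin1 in Int (adjusted p = 0.0527), Grin2b in Cluster 9 (0.0632) and Grin2d in PN (0.0518), and no other call. Counts summed per dam kept Grin1 in Cluster 5 and Gria4 in RGC among the 8 calls. Shares of nuclei gave 0 adjusted calls, as for all genes, and 9 without thinning; the 0 calls without 1 embryo are no sign of stability. Subunit ratios gave 0, and 3 with thinned nuclei. For the share of nuclei, the difference EtOH minus saline was 0.160 percentage points for Gria3 in RGC at 2 or more UMIs, against -3.63 at 1 or more, and -0.0074 for Grin2d in Other without thinning, against 0.705 with it. The cause of these changes was not tested. The cluster with the highest level was the same for 9 members with TMM scaling and with thinning, for 8 with at least 30 nuclei (Grin1 then led in Cluster 19) and for 7 in saline embryos alone (Grin2b then led in Cluster 25, Gria1 in Cluster 13). Depth limits Grin1 and Grin2d most, with 15574 and 3131 UMIs in all nuclei, and counting intervals would cover counting error only.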
